A study of Ovis aries with 23 samples.

Results

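The metabolism genes described here are 111 of the 25197 sheep genes counted in 23 RNA-seq samples of the ovine pars tuberalis (PT). They were chosen from a category table of 1324 genes that the study had listed as differentially expressed (DE) in its RNA-seq comparisons. These compared photoperiods and also durations within a photoperiod. Of the 1324, 151 carried the metabolism category. Those also filed under transport, nervous system, development or circadian rhythm were left out, together with a short list of named hormone, pigment and photoperiod genes. Because the table was built from measured values, every comparison of short photoperiod with long photoperiod was used in choosing the members. The study had listed 47 of the members on the present samples (2, 27 and 32 of them for long photoperiod day 1, 7 and 28) and the other 64 only in another RNA-seq experiment. A gene symbol was given for 90 members and only an Ensembl identifier for 21.

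The samples came from neutered male Scottish blackface sheep in 4 groups. The short photoperiod group (SP, 5 samples) was kept in a cycle of 8 h light and 16 h dark for 12 weeks. The long photoperiod groups (LP day 1, day 7 and day 28, 6 samples each) had then been moved to 16 h light and 8 h dark for that number of days. No treatment other than photoperiod is named for any group. The PT lies next to the pars distalis and the hypothalamus, and blocks were collected with these attached. Per the methods, sampling times varied, and no clock time is attached to a sample in the sources used here.

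Total counts per sample ran from 307952 (LP day 1 sample 4) to 4413929 with a median of 3332320, so genes with few counts are known least well in LP day 1 sample 4. LP day 1 samples 3 and 4 were the most alike of the 55 pairs within groups (mean chi-square per gene 1.14, against 1.66 to 10.2 in the other 54 pairs, after thinning to 307952 counts). They were kept as 2 samples and are also given summed where that changes a call. All 5 PT thyrotroph markers fixed for the check were counted, 1 of them at 0 in part of the LP day 1 samples, with summed levels of 6727 to 15087 CPM (counts scaled to a common library size), and so were all 6 pars distalis markers, whose sums varied more (34994 to 272700 CPM). The thyrotroph sum was mostly CGA and CHGA (27567 and 16206 counts in SP sample 1, beside 783 of TSHB, 140 of EYA3 and 65 of MTNR1A). The paper calls the product of CGA a common subunit and places CHGA in pars distalis cells too. The sum is therefore no measure of PT thyrotroph content. None of the 3 endothelial markers, none for red cells and 1 of the 3 leukocyte markers could be paired with an identifier. In bulk tissue, fewer cells of a type and less RNA per cell cannot be told apart.

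The PT carries dense melatonin receptors and converts the nightly melatonin signal, whose length follows the night, into a seasonal output to the hypothalamus and pituitary. In this tissue the clock gene CRY1 is known for its rise after the onset of melatonin at night. Metabolic genes act at several levels: glycogenin and the glycogen-targeting phosphatase subunits govern glycogen stores, pyruvate dehydrogenase kinases restrain the oxidation of pyruvate to acetyl-CoA, AMP deaminase sets the balance of adenine nucleotides, and the PAR bZIP factors pass the clock's rhythm on to enzymes.

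The category is broader than its name. Among the 111 members, 5 act on carbohydrate, 5 on lipid, 4 on amino acids and amines and 5 on nucleotides or inositol phosphates, and 3 are encoded by the mitochondrial genome. The largest group holds 22 transcription factors and chromatin proteins, followed by 10 genes of ribosomes and RNA handling, 9 protein kinases, 6 regulators of small GTPases, 6 interferon-induced genes, 5 genes of cell division and 3 clock output genes, while 7 fall under ion transport, motors and other roles. A gene was tested where the number of samples over 1 CPM was no lower than the size of the smaller group. By that filter 91 members were tested in every comparison and 14 in none.

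**Figure D1:**
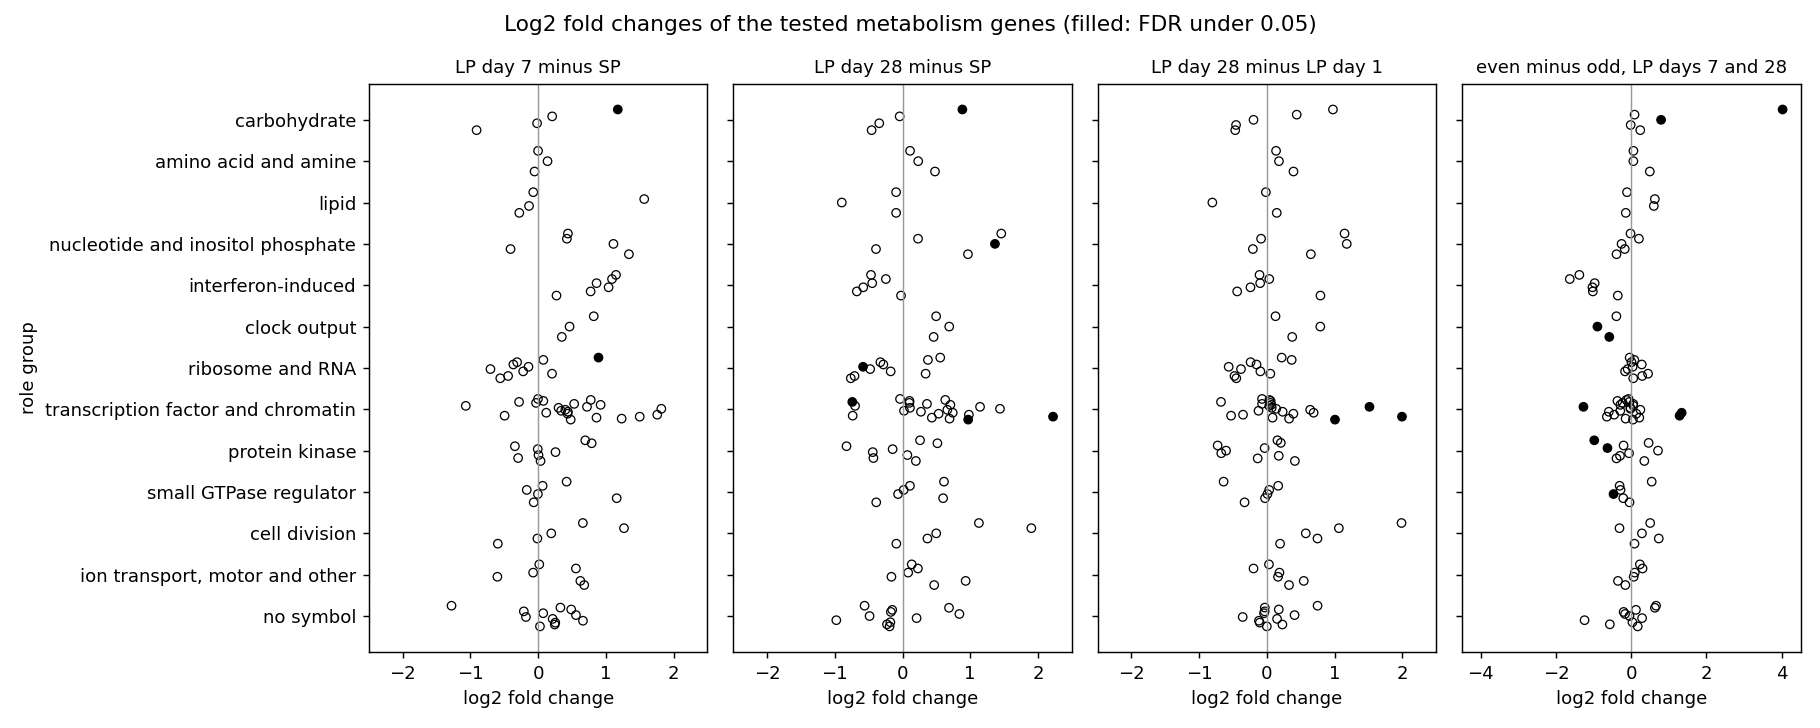
Log2 fold changes (x axis) of each tested metabolism gene by role group (y axis) in 4 comparisons, with filled circles for a false discovery rate (FDR) under 0.05 and open circles otherwise. For LP day 28 against SP 3 of the 6 filled circles are transcription factors and chromatin proteins, and filled circles are spread over 5 role groups for even against odd sample number, where PPP1R3A stands at 4.02.

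In the comparisons with SP the values below describe the members and are no test of them, since these contrasts chose them. No tested member of 92 passed an FDR of 0.05 at LP day 1, as was so for all 14920 genes (0% called by edgeR, with 7 members and 3.33% of all genes at an unadjusted p under 0.05). At LP day 7, 2 of 94 tested members were called, both higher (background 0.266% of 15030 genes, 0.193% higher). At LP day 28, 6 of 92 were called, 4 higher and 2 lower (background 0.67% of 14929 genes, 0.422% higher and 0.248% lower). All members called at these times belong to the 47 that the study had listed on the same samples. The median log2 fold change of the tested members was 0.23 for LP day 7 (61 of 94 positive, background 48.9% of all genes) and 0.11 for LP day 28 (52 of 92 positive, background 49.1%), beside -0.01 over all genes for each. Groups did not overlap for 7 members at LP day 7 (background 2.04%) and for 6 at LP day 28 (background 1.98%). Among the 7 is NEK2, which entered the test only through LP day 7 samples.

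Between the LP groups, which share their LP samples with the contrasts that chose the members, 3 of 95 tested members passed between day 28 and day 1, all higher (background 0.216% of genes, 0.175% higher), and groups did not overlap for 2, EZH2 and CHD1L (background 0.526%). None of 95 passed between day 7 and day 1 (background 0.0201%) or between day 28 and day 7 (background 0.00672%) by edgeR, with 20 and 23 members at an unadjusted p under 0.05 (background 5.56% and 7.13%). Groups did not overlap for 1 of 95 members in the first (background 0.269%) and for 3 in the second (background 0.363%). DESeq2 called 1 member (PDK4) among 14 genes in the first of these and 2 (CHD1L and EEF1A2) among 36 in the second.

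The transcription factors and chromatin proteins held 3 of the 6 members called at LP day 28 against SP. EZH2 (ENSOARG00000018856) encodes the catalytic subunit of the polycomb complex that methylates lysine 27 of histone H3. Its level was 22.8, 8.13, 21.9, 12.96 and 20.03 CPM in SP samples 1 to 5, 12.7 to 40.1 CPM (median 18.4) at LP day 1, 24.4 to 84.3 CPM (median 41.4) at LP day 7 and 42.4 to 147 CPM (median 74.6) at LP day 28. Every sample of LP day 7 and day 28 was above every SP sample, and LP day 28 was also above all of LP day 1. The log2 fold change against SP was 0.25 (SE 0.31) at day 1, 1.5 (SE 0.32) at day 7 and 2.22 (SE 0.29) at day 28. From LP day 1 to day 28 EZH2 rose 3.99-fold (log2 fold change 2.00 (SE 0.29), FDR = 0.00232), a difference that held its call in every alternative and with each sample left out.

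CHD1L (ENSOARG00000020547), a chromatin remodeler recruited to DNA damage, had its highest levels at LP day 28. As with EZH2, every LP day 7 sample was already above every SP sample. SP samples 1 to 5 held 53.2, 34.5, 46.2, 34.7 and 54.7 CPM, against 31.5 to 67.7 CPM (median 40.6) at LP day 1, 57.0 to 70.0 CPM (median 63.3) at day 7 and 71.4 to 106 CPM (median 87.2) at day 28. LP day 28 lay above all samples of the other 3 groups, including LP day 1 sample 5 (67.7 CPM), which stood apart from its own group. The log2 fold change was 0.97 (SE 0.16) against SP and 1.01 (SE 0.17) against LP day 1, where it passed (FDR = 0.00950). The step from LP day 7 to day 28 was 0.49 (SE 0.12) with no overlap, and did not pass by edgeR (FDR = 0.244).

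ZMYND15 (ENSOARG00000007364), a MYND zinc finger repressor, passed between LP day 28 and day 1 at 1.52 (SE 0.30) on the log2 scale (FDR = 0.0287). Its values were 18.5, 10.5, 11.8, 11.7 and 7.62 CPM in SP, 7.81 to 11.9 CPM (median 9.60) at LP day 1, 11.3 to 35.4 CPM (median 16.6) at day 7 and 11.4 to 41.6 CPM (median 26.3) at day 28. The LP day 28 samples fell into a low set (samples 2, 4 and 6, 15.4, 11.4 and 18.7 CPM) and a high set (samples 1, 3 and 5, 39.7, 33.8 and 41.6 CPM), and the same split by sample number is described below. The call was lost when LP day 1 samples 3 and 4 were summed (log2 fold change 1.53) and without LP day 1 sample 1, 3, 4 or 6 or LP day 28 sample 1, 3 or 5 (range over all left-out samples 1.35 to 1.67).

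TOX2 (ENSOARG00000003661), an HMG-box factor, was the lowest chromatin-group member relative to SP at LP day 28. SP samples 1 to 5 held 45.6, 36.2, 36.9, 34.0 and 41.8 CPM and LP day 28 held 20.5 to 27.9 CPM (median 22.7), with no overlap and a log2 fold change of -0.74 (SE 0.13). LP day 1 spanned 15.9 to 50.7 CPM, wider than any other group. MTF1, the metal-responsive transcription factor, was highest at LP day 7 (9.95 to 14.8 CPM (median 12.1)), above every sample of SP (7.68, 1.69, 5.77, 5.51 and 5.36 CPM), of LP day 1 (4.06 to 8.90 CPM (median 7.60)) and of LP day 28 (7.96 to 9.20 CPM (median 8.60)). Its LP day 7 difference was 1.23 (SE 0.27) from SP, 0.86 (SE 0.21) from LP day 1 (FDR = 0.484) and LP day 28 differed from LP day 7 by -0.54 (SE 0.16) (FDR = 0.425). Neither test within LPs passed. ST18, a zinc finger factor of the nervous system, held 95.3, 49.8, 71.8, 62.5 and 74.2 CPM in SP and 91.2 to 145 CPM (median 109) at LP day 28, and its LP day 28 difference from day 1 was 0.64 (SE 0.14) (FDR = 0.0986).

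Of the 22 transcription factors and chromatin proteins, 17 had a positive log2 fold change at LP day 7 (median 0.44, background 48.9% positive) and 18 at LP day 28 (median 0.48, background 49.1%), with 0 and 3 called (background 0.266% and 0.67%). The median between LP day 28 and day 1 was 0.07 with 3 called (background 0.216%).

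**Figure D2:**
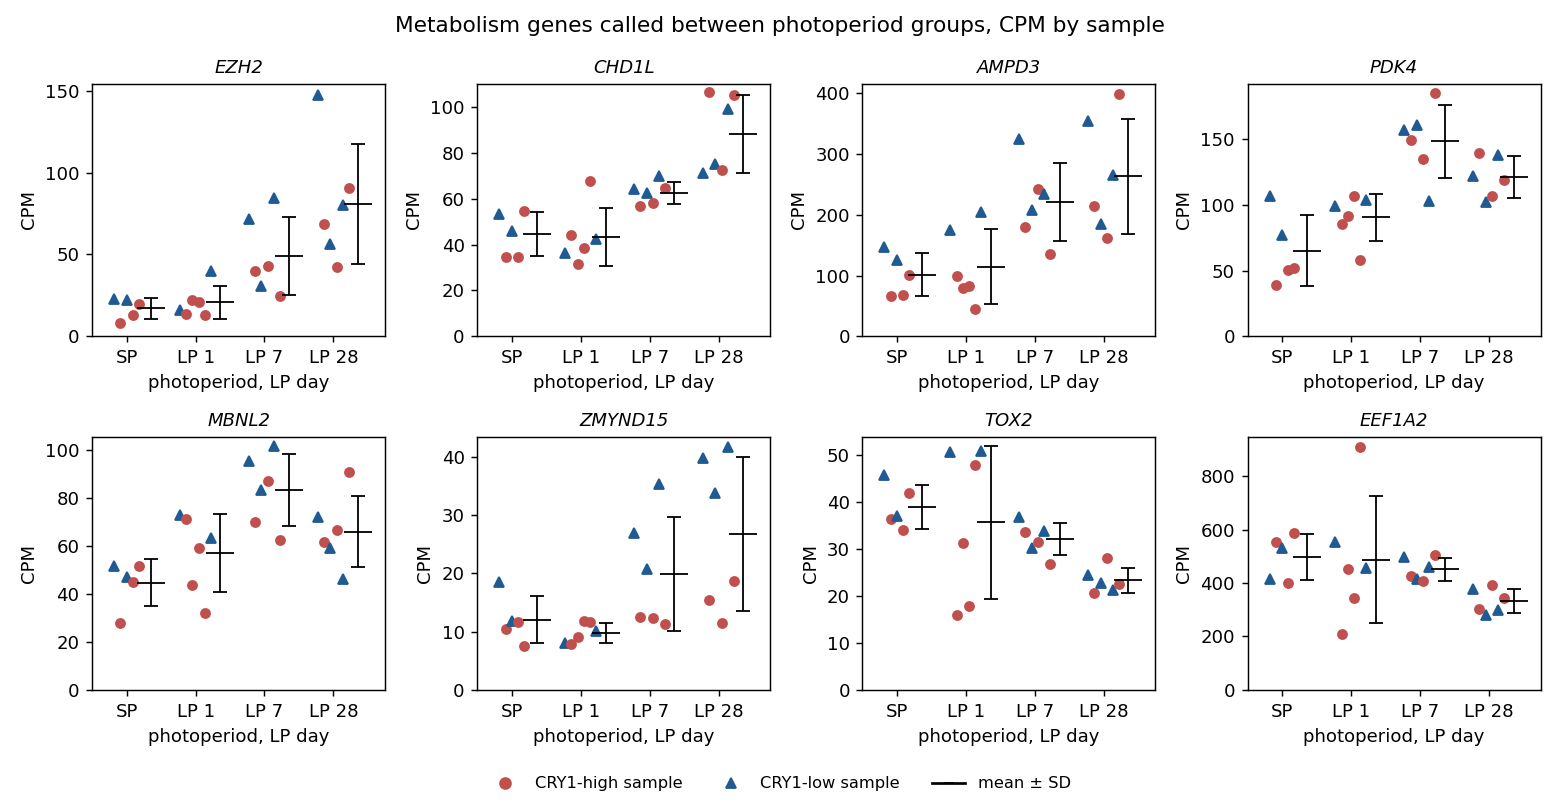
CPM of 8 metabolism genes called in at least 1 comparison of photoperiod groups, by sample, with the mean ± SD of each group (SP n = 5, LP n = 6). Red circles are samples with high CRY1 and blue triangles samples with low CRY1. EZH2, CHD1L and AMPD3 sit higher in all LP day 28 samples than in all SP samples, and TOX2 and EEF1A2 lower.

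Among nucleotide enzymes, AMPD3 (ENSOARG00000011248) encodes an AMP deaminase, which turns AMP into IMP. Its level was 148, 66.0, 125, 67.4 and 101 CPM in SP samples 1 to 5, 45.2 to 205 CPM (median 91.2) at LP day 1, 135 to 325 CPM (median 222) at day 7 and 161 to 398 CPM (median 240.1) at day 28. LP day 28 did not overlap SP, whereas LP day 1 spanned the SP range. The log2 fold change against SP was 1.11 (SE 0.23) at day 7 and 1.37 (SE 0.24) at day 28, and the LP day 28 difference from day 1 of 1.18 (SE 0.29) did not pass (FDR = 0.1496). ENTPD3, an ectonucleotidase, differed by 1.46 (SE 0.49) and IPMK, an inositol polyphosphate kinase, by 0.97 (SE 0.58) at LP day 28, AK9, an adenylate kinase, by 0.23 (SE 0.20) and NME4, a mitochondrial nucleoside diphosphate kinase, by -0.39 (SE 0.18); none of these was called.

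Among carbohydrate genes, PDK4 (ENSOARG00000003501), the kinase that shuts down the pyruvate dehydrogenase complex, was the only one called against SP. SP samples 1 to 5 held 107, 38.9, 77.3, 50.9 and 52.2 CPM, LP day 1 58.3 to 107 CPM (median 95.4), LP day 7 103 to 185 CPM (median 154) and LP day 28 102 to 140.0 CPM (median 121). LP samples were mostly above SP, but SP sample 1 lay within the LP range at each time. The log2 fold change was 0.45 (SE 0.22) at LP day 1, 1.18 (SE 0.22) at day 7 and 0.88 (SE 0.20) at day 28. Within LPs the day 7 level was 1.65-fold that of day 1 without passing in edgeR (FDR = 0.202), and passed in DESeq2.

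The PDK4 differences kept their sign and size with each sample left out, while their calls lay near the threshold. At LP day 7 the call was lost without SP sample 2, 4 or 5 or LP day 7 sample 1, 2, 3 or 4 (log2 fold changes 1.04 to 1.42 over all left-out samples), and at LP day 28 it was kept only without SP sample 1 (0.75 to 1.14). ENO2, the neuronal form of the glycolytic enzyme enolase, and TKTL1, a transketolase-like protein, were not called in any comparison. Their log2 fold changes at LP day 28 were -0.34 (SE 0.19) and -0.46 (SE 0.59) against SP.

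Genes of ribosomes and RNA handling gave 1 call at LP day 7 and another at LP day 28. MBNL2 (ENSOARG00000002685), a regulator of alternative splicing, held 51.9, 28.1, 47.3, 45.0 and 51.6 CPM in SP and 62.4 to 102 CPM (median 85.3) at LP day 7, with no overlap. Its log2 fold change was 0.89 (SE 0.16) at LP day 7 and 0.56 (SE 0.17) at LP day 28, where the groups overlapped (46.5 to 90.8 CPM (median 64.1)). The LP day 7 call was lost without SP sample 1, 2 or 4 or LP day 7 sample 1, 3, 4 or 5 (0.76 to 0.95).

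EEF1A2 (ENSOARG00000011052), the elongation factor form of neurons and muscle, was lower at LP day 28. SP samples 1 to 5 held 414, 555, 530.0, 399 and 588 CPM and LP day 28 281 to 393 CPM (median 322), with no overlap and a log2 fold change of -0.58 (SE 0.12). LP day 28 also lay below all of LP day 7 (406 to 504.2 CPM (median 443)), by 0.44 (SE 0.09), which did not pass in edgeR (FDR = 0.1498) and did in DESeq2. LP day 1 was the widest group (208 to 910.0 CPM).

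The extreme samples for EEF1A2 and ENO2 were also extreme for the glial marker GFAP and for ALDOC, an aldolase of glia and neurons. LP day 1 sample 5 had the highest EEF1A2 (910.0 CPM) and ENO2 (676 CPM) of the 23 samples and also the highest GFAP (832 CPM), S100B (180.3 CPM) and ALDOC (490.2 CPM). LP day 1 sample 2 had the lowest EEF1A2 (208 CPM) and ENO2 (109 CPM) and the lowest GFAP (47.8 CPM) and ALDOC (58.4 CPM), while its S100B (30.6 CPM) was above that of LP day 1 samples 3 and 4 and SP sample 1 (21.2, 11.9 and 16.7 CPM). The summed level of GFAP and S100B was 114 to 725 CPM in SP, 78.4 to 1012 CPM at LP day 1, 168 to 637 CPM at LP day 7 and 230.5 to 473 CPM at LP day 28. The part of these markers in the EEF1A2 difference was not tested beyond a fit with GFAP as a covariate, chosen after seeing the data, in which the difference between LP day 28 and SP was -0.57. The EEF1A2 call was lost without SP sample 2, 3 or 5 or LP day 28 sample 2, 3, 5 or 6 (-0.65 to -0.52).

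The 4 cytosolic ribosomal protein members were lower than SP on both LP day 7 and LP day 28, with none called. RPS16 held 522, 618, 525.7, 547 and 465 CPM in SP and 401 to 453 CPM (median 437) at LP day 7 with no overlap (-0.31 (SE 0.08)), and 369.9 to 503.6 CPM (median 424) at LP day 28 (-0.33 (SE 0.09)). At LP day 28 RPL13 differed from SP by -0.48 (SE 0.13), RPL13A by -0.76 (SE 0.22) and RPS26 by -0.71 (SE 0.18). Ribosomal protein genes have near-identical copies in the genome, so these counts are uncertain. DESeq2 called all 4 at LP day 28, among 346 genes in all.

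The SP differences were also read within samples of like CRY1 level, since CRY1 split the samples into 13 with 138 to 406 CPM (CRY1-high) and 10 with 16.9 to 34.5 CPM (CRY1-low). EZH2, CHD1L and AMPD3 were higher at LP day 28 than SP without overlap both in CRY1-high samples (3 against 3) and in CRY1-low samples (3 against 2). Their mean log2 differences were 2.26 and 1.94 for EZH2, 1.20 and 0.70 for CHD1L, and 1.64 and 0.93 for AMPD3. TOX2 (-0.65 and -0.83) and EEF1A2 (-0.56 and -0.57) were lower without overlap in both sets. PDK4 differed by 1.35 without overlap in CRY1-high samples and by 0.40 with overlap in CRY1-low samples. ZMYND15 differed between LP day 28 and day 1 by 0.55 with overlap in CRY1-high samples and by 2.01 without overlap in CRY1-low samples. These are descriptions, because the sets were defined from the data. EZH2, CHD1L, AMPD3, TOX2 and EEF1A2 did not overlap between all LP day 28 and all SP samples. Their lack of overlap within each CRY1 set follows from that and is no separate result.

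A second axis ran across the photoperiod groups. In LP days 7 and 28, the 6 samples with even numbers were CRY1-high and the 6 with odd numbers CRY1-low, and the labels do not say what the sample number stands for. This axis took no part in choosing the members, although it was known from earlier results of these data. Fitted with day as a term, 10 of 95 tested members passed, 4 higher and 6 lower in even samples (background 1.02% of 14890 genes, 0.302% higher and 0.719% lower, 152 called). The share among members, 10.5%, stood beside 5.41% of the other 1035 tested genes of the category table and 0.625% of genes outside it. It was 11.1% of the members listed on these samples and 10% of those listed only in the other experiment. Of the 10, 7 did not overlap between even and odd samples (7 of 95, background 1.33%). PPP1R3A is among the 10 and the 7, with a limit given below.

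**Figure D3:**
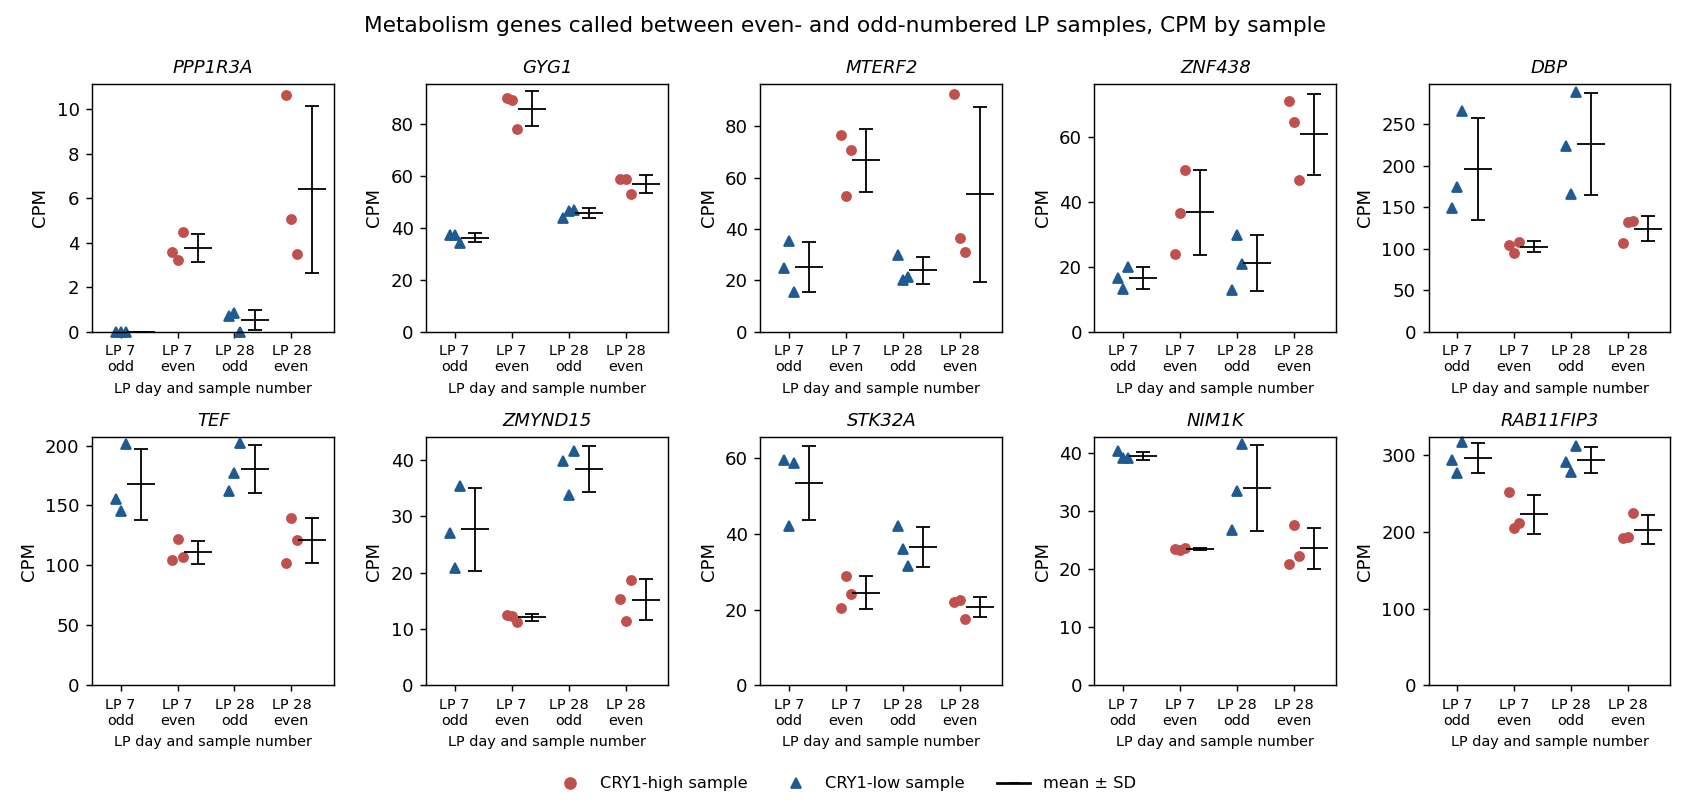
CPM of the 10 metabolism genes called between even- and odd-numbered samples of LP days 7 and 28, by day and parity (3 samples each), with the mean ± SD. Red circles are CRY1-high and blue triangles CRY1-low samples. PPP1R3A, GYG1, MTERF2 and ZNF438 sit higher in even samples and the other 6 lower. For MTERF2, ZNF438 and NIM1K even and odd samples overlap over both days together. The GYG1 gap is wider at day 7 than at day 28.

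Both glycogen members were higher in even samples. PPP1R3A (ENSOARG00000001892) encodes the muscle form of the glycogen-targeting subunit of protein phosphatase 1. It had few counts: 0, 0 and 0 in the odd and 12, 12 and 13 in the even samples of LP day 7, and 3, 3 and 0 in the odd and 31, 15 and 9 in the even samples of LP day 28. All even samples were above all odd samples. Over both days 92 counts in even samples stood against 6 in odd samples, a depth-corrected ratio of 17.1 (exact 95% interval 7.57 to 47.8, counting error only). The gene entered the test only through the even samples, where it is over 1 CPM, so its call and its lack of overlap are a description. The same holds for its part in the counts of 10 and 7 and in the shares of members called. In SP only sample 5 had counts (5), and at LP day 1 samples 2, 3 and 5 had 19, 5 and 3.

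GYG1 (ENSOARG00000005235) encodes glycogenin, the protein primer on which glycogen is built. Odd samples held 37.1, 37.3 and 34.1 CPM at LP day 7 and 43.7, 46.6 and 47.0 CPM at LP day 28, and even samples 90.2, 89.4 and 78.2 CPM and 58.9, 58.9 and 53.0 CPM. The sets did not overlap, and the log2 difference was 0.79 (SE 0.14) (FDR = 0.00712). The gap measured 1.23 on LP day 7, against 0.31 on LP day 28. The interaction of parity with day had an unadjusted p of 5.89e-05 in edgeR and an FDR of 0.293, so it did not pass over all 15595 genes. In no photoperiod comparison was GYG1 called (0.21 (SE 0.27) at LP day 7 and -0.04 (SE 0.15) at LP day 28 against SP).

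GYG1 was the only one of 98 tested members whose CRY1-high and CRY1-low samples did not overlap over all 23 samples (background 0.0639%). CRY1-high samples ranged from 49.1 to 90.2 CPM and CRY1-low samples from 34.1 to 47.7 CPM. With library-size in place of TMM normalization the sets overlapped.

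MTERF2 (ENSOARG00000018491), a mitochondrial transcription factor of the MTERF family, held 24.9, 35.2 and 15.5 CPM in odd and 76.6, 52.9 and 70.7 CPM in even samples of LP day 7. At LP day 28 the values were 30.04, 20.2 and 21.3 CPM and 92.7, 36.7 and 31.2 CPM, where even sample 2 stood far above the rest. It rose by 1.29 (SE 0.24) on the log2 scale in even samples (FDR = 0.0105), with overlap over both days together. ZNF438 (ENSOARG00000014107), a zinc finger protein, held 16.5, 13.2 and 19.9 CPM in odd and 23.7, 36.5 and 49.7 CPM in even samples of LP day 7, and 12.7, 29.9 and 20.8 CPM and 70.8, 64.6 and 46.8 CPM at LP day 28. The difference was 1.34 (SE 0.21) (FDR = 0.00264), also with overlap over both days together.

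Of the 3 clock output members, 2 passed and were lower in even samples. DBP and TEF are PAR bZIP factors that bind D-box elements, and NR1D2 (REV-ERB beta) represses the positive limb of the clock. DBP ranged over 149 to 289 CPM (median 199) in odd and 94.8 to 133 CPM (median 107) in even samples of LP days 7 and 28, and TEF over 145 to 202 CPM (median 169.6) and 102 to 139 CPM (median 114). Neither gene's sets overlapped, and both fell in even samples, by 0.90 (SE 0.14) for DBP (FDR = 0.00278) and 0.58 (SE 0.10) for TEF (FDR = 0.00570). NR1D2 did not pass (-0.39 (SE 0.20), FDR = 0.524), with a gap of -1.002 at LP day 7 and 0.24 at LP day 28 whose interaction did not pass either (unadjusted p = 2.38e-04, FDR = 0.358). Of 11 tested genes from a circadian clock list, 1 was called higher and 5 lower in even samples (background 0.302% and 0.719%). The 1 called higher is CRY1, the gene that sets CRY1 state. Its call repeats the match of even numbers with CRY1-high samples and is no separate result. The 3 members are among the 11, and all 11 could be paired only because the study had listed them as DE.

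Among the remaining calls, ZMYND15 had the widest fall in even samples, with 20.8 to 41.6 CPM (median 34.6) in odd and 11.3 to 18.7 CPM (median 12.4) in even samples (-1.27 (SE 0.16), FDR = 3.04e-04). The kinase STK32A (ENSOARG00000003419) held 31.5 to 59.5 CPM (median 42.1) in odd and 17.5 to 29.0 CPM (median 22.2) in even samples (-0.98 (SE 0.14), FDR = 8.11e-04), also without overlap. NIM1K (ENSOARG00000008720), a kinase related to AMPK, held 26.8 to 41.6 CPM (median 39.2) and 20.9 to 27.6 CPM (median 23.4) (-0.63 (SE 0.13), FDR = 0.0144), with overlap, and lost its call without LP day 7 sample 4 (-0.71 to -0.58 over all left-out samples). RAB11FIP3 (ENSOARG00000012117), a Rab11 effector of recycling endosomes, held 278 to 317 CPM (median 293) and 192 to 252 CPM (median 209) without overlap, the smallest of these differences (-0.47 (SE 0.08), FDR = 0.00413).

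In SP and LP day 1 CRY1 state does not follow parity: SP samples 1 and 3 and LP day 1 samples 1 and 6 were the CRY1-low ones. All 10 members called by parity had the same sign between CRY1-high and CRY1-low samples of these 2 groups together (7 against 4 samples), beside 92.1% of all genes called by parity. With SP and LP day 1 taken apart, 4 of 10 kept it in both (70.9% of all such genes). Of 98 tested members 4 did not overlap there (background 1.37%). MTERF2 was 65.2 to 101.6 CPM in CRY1-high and 21.3 to 41.9 CPM in CRY1-low samples, and GYG1 was 49.1 to 87.0 and 39.5 to 47.7 CPM. The lack of overlap of GYG1 and its sign here follow from its lack of overlap over all 23 samples and are no separate result. AMPD3 (45.2 to 101.3 against 125 to 205 CPM) and the kinase MAST3 (67.0 to 91.8 against 115 to 159 CPM) were lower in CRY1-high samples. The other members called by parity overlapped there, with differences of median log2 CPM of 1.43 for PPP1R3A, 0.56 for ZNF438, -0.69 for STK32A and -0.41 for NIM1K, and of -0.06, -0.11, -0.12 and -0.07 for ZMYND15, DBP, TEF and RAB11FIP3. The last 4 changed sign between the groups, from -0.47, -1.04, -0.67 and -0.49 in SP to 0.18, 0.63, 0.03 and 0.22 at LP day 1. NIM1K also did (0.02 and -0.75), and PPP1R3A was at 0 in SP and 1.60 at LP day 1.

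**Figure D4:**
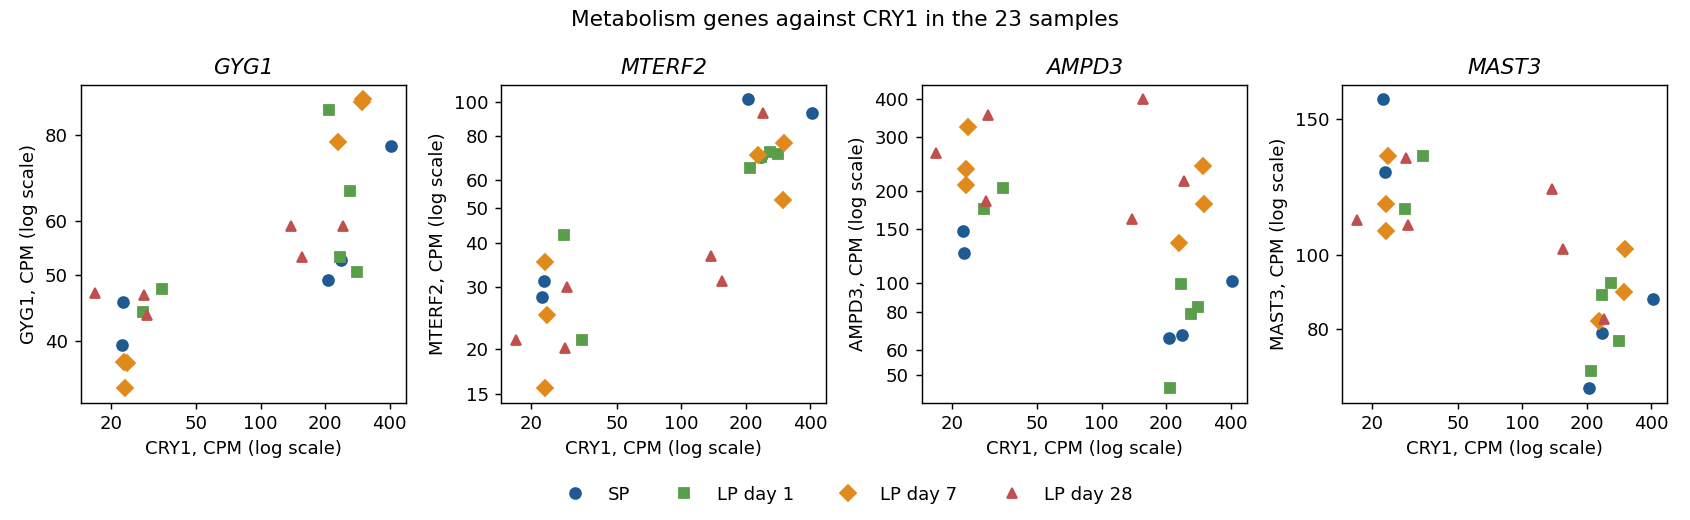
CPM of GYG1, MTERF2, AMPD3 and MAST3 (y axes, log scale) against CRY1 CPM (x axes, log scale) in the 23 samples, marked by group. CRY1 leaves a gap between 34.5 and 138 CPM with no sample in it, and GYG1 does not overlap across this gap, while AMPD3 at LP day 28 overlaps.

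The 6 interferon-induced members were set apart by 1 sample. RNF213, a large ubiquitin ligase, stood at 654 CPM in LP day 7 sample 3, CMPK2, a mitochondrial nucleotide kinase, at 436 CPM, and DHX58, a sensor of viral RNA, at 330.3 CPM. UBA7, the activating enzyme of the ISG15 pathway, stood at 274 CPM, the transcription factor IRF7 at 175 CPM and NLRC5, an activator of MHC class I genes, at 71.9 CPM in the same sample. In the other 5 samples of LP day 7 RNF213 held 42.3, 43.0, 54.2, 44.5 and 40.8 CPM and CMPK2 43.2, 36.2, 41.1, 38.7 and 44.9 CPM. The leukocyte marker PTPRC, the one that could be paired, stood at 22.6 CPM in LP day 7 sample 3, within the range of that group (16.8 to 68.5 CPM). SP sample 3 (153.8 CPM of RNF213) and LP day 1 sample 5 (80.1 CPM) were raised to a lesser degree.

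None of the 6 was called in any comparison. At LP day 7 all 6 had a positive log2 fold change against SP (0.27 to 1.15, median 0.95), and without LP day 7 sample 3 all 6 were negative (-0.63 to -0.26, median -0.40). The even against odd difference was negative for all 6 (median -1.03), and without that sample 4 were positive and 2 negative (median 0.13). The LP day 28 difference from LP day 7 went from a median of -1.40 to -0.02. At LP day 28 all 6 were below SP, by 0.68 (SE 0.26) for DHX58 and 0.02 (SE 0.32) for NLRC5 at the extremes. Of a list of 40 interferon-stimulated genes 21 could be paired with an identifier, the 6 members among them, and against SP all 21 were positive at LP day 7 (median 1.15) and all 21 negative at LP day 28 (median -0.75) with none called. Without LP day 7 sample 3, 1 was positive and 20 negative at LP day 7 (median -0.78), and with SP sample 3 left out too 8 were positive and 13 negative (median -0.14). At LP day 28 without SP sample 3, 8 were positive and 13 negative (median -0.19), and the 6 members were 3 positive and 3 negative (median -0.06). A pair of members without a symbol, ENSOARG00000015153 (105.6 CPM) and ENSOARG00000015432 (18.0 CPM), were also highest in LP day 7 sample 3. The members named in this paragraph and the one before, other than RNF213 and CMPK2, were chosen after their values were seen.

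**Figure D5:**
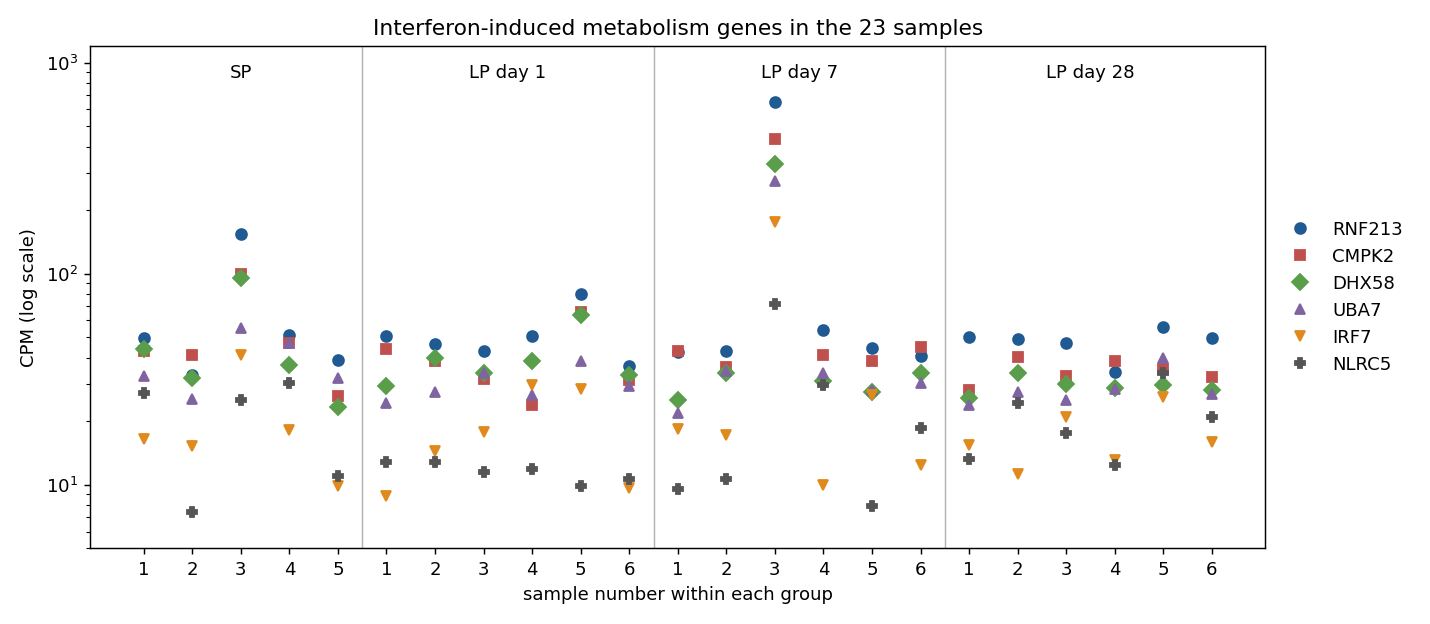
CPM (log scale) of the 6 interferon-induced metabolism genes in each of the 23 samples, ordered by group and sample number. LP day 7 sample 3 is the highest sample for all 6 genes, from 71.9 CPM for NLRC5 to 654 CPM for RNF213, and SP sample 3 is next highest for RNF213, CMPK2, DHX58, UBA7 and IRF7.

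Counts at 0 limited the mitochondrial members. MT-ND2, MT-ND6 and MT-ATP8, subunits of respiratory complex I and of ATP synthase, were listed at 0 in all 23 samples, as were 6 members without a symbol. MT-ND5, the other mitochondrial gene that could be paired, was at 0 in all 23 samples as well. A count of 0 allows a level of up to 3 counts only where reads of the gene are counted. Whether mitochondrial reads were counted in these files was not tested, so no statement on these genes follows.

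Genes of amino acids, lipids, cell division and transport gave no call. MUT, the mitochondrial methylmalonyl-CoA mutase, differed little between SP and LP day 28 (102 ± 12.6 CPM (SD, n = 5) in SP and 111 ± 16.7 CPM (SD, n = 6) at LP day 28, log2 fold change 0.11 (SE 0.12)). GLDC, the glycine decarboxylase, differed by 0.23 (SE 0.16). HDC, which makes histamine, was near 0 in most samples and reached 68.8 CPM in LP day 1 sample 5, 22.98 CPM in LP day 7 sample 6 and 12.7 CPM in LP day 28 sample 1. It was named after its values were seen. Among lipid genes GDPD5, a glycerophosphodiesterase, differed from SP by -0.09 (SE 0.19) at LP day 28. The proliferation marker MKI67 held 9.53, 2.03, 4.04, 17.8 and 5.92 CPM in SP and 6.70 to 16.5 CPM (median 11.7) at LP day 28 (0.50 (SE 0.40)). NEK2, a centrosome kinase, had no overlap between LP day 7 (1.19 to 2.11 CPM (median 1.63)) and SP (0.530, 1.02, 0.866, 0.648 and 0.282 CPM) at very low levels. Before TMM scaling no SP sample was over 1 CPM. NEK2 therefore entered this test only through LP day 7 samples, and its lack of overlap is a description. ATP1B3, a subunit of the sodium pump, differed by 0.08 (SE 0.14) at LP day 28.

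The other well-counted members of each role group also gave no call. Against SP at LP day 28 the log2 difference was -0.09 (SE 0.17) for SLC27A3, a fatty acid transport protein, 0.02 (SE 0.13) for CHD5, a chromatin remodeler of neurons, and -0.09 (SE 0.46) for KIF14, a mitotic kinesin. It was 0.11 (SE 0.16) for ACAP3, a GTPase-activating protein for ARF6, 0.07 (SE 0.19) for the kinase MAST3, -0.43 (SE 0.21) for the kinase MAPK15 and 0.14 (SE 0.16) for TTLL5, a tubulin polyglutamylase. None of these passed between even and odd samples in edgeR, and DESeq2 called MAPK15 there.

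Wider pathway lists could be read only in part, because symbols were paired with identifiers only for genes that the study had listed as DE in some comparison. From 26 genes of glycolysis and pyruvate dehydrogenase control, 4 could be paired, and PDK4 alone was called at LP day 7 and LP day 28. From 15 glycogen genes the 2 that could be paired are PPP1R3A and GYG1 themselves. From 74 cytosolic ribosomal protein genes the 4 paired are the members above, and from 15 cell division genes 6 could be paired, with 5 positive at LP day 28 against SP (background 49.1%) and 1 called (background 0.67%). The called gene is EZH2, which this list holds and the role group of cell division does not.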

How the data were processed

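Per the methods and labels, total RNA of the PT was extracted with a column kit and sequenced as Illumina cDNA libraries. The authors deposited raw read counts per gene, without normalization, in 1 file per sample. The submitters' processing notes name Bowtie, HTSeq and the sheep build Oar 3.1; which program made the counts and the strand setting are not given in the sources used here. Reads of overlapping or near-identical genes may therefore be shared or lost. Total counts of 307952 to 4413929 per sample set the precision, and count intervals cover counting error only, since reads carried no molecular identifiers.

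Counts were tested in edgeR 4.0.16 (R 4.3.3, limma 3.58.1) with TMM normalization and the quasi-likelihood test, for genes with more than 1 CPM in a number of samples no lower than the size of the smaller group. FDR is the Benjamini-Hochberg value over all genes tested, with a threshold of 0.05. Each of the 6 pairs of groups was fitted on its own samples, and even against odd sample number on LP days 7 and 28 with day as a term. Printed CPM were TMM-normalized over all 23 samples. SE was obtained from the log2 fold change and the F value of its test (change over root F). CRY1 state was set at the widest gap in log2 CPM of CRY1 and was not tested. The sources read here do not state that the samples came from separate animals, so p-values measure the spread between these samples, which may be technical.

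Members, lists and tests were chosen with earlier results of these data known. The genes named were every member with a symbol called in a comparison, up to 3 members in each direction per comparison whose groups did not overlap, up to 5 in each direction by CRY1 state, and the 2 of highest mean CPM in each role group, 39 in all. IPMK, ENTPD3, AK9, TKTL1, NR1D2, HDC, RPL13, RPL13A, RPS26, DHX58, UBA7, IRF7, NLRC5 and the 2 unnamed identifiers were chosen after their values were seen. Symbols came from the study's gene lists. No sequence is printed, because no genome of the files' build was used here.

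Alternatives were DESeq2 1.42.0, library-size normalization, no filter, 1 fit of all 4 groups, the replicate number as a block, CRY1 or GH1 as a covariate, SP samples 2, 3 and 5 only, and each sample left out. Summing LP day 1 samples 3 and 4, and a GFAP covariate, were added after seeing the data. On counts simulated for LP day 28 against SP (14929 genes, 200 changed), the test recovered 60.6% of 2-fold, 87.0% of 3-fold and 93.8% of 4-fold changes. Of its calls, 5.29% were unchanged genes. The simulated counts were drawn independently, without a CRY1 or parity split, shifts in cell content or single outlying samples. These rates may therefore not hold for the real counts.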

Additional observations from a re-analysis of the deposited data

Results flagged for a closer look

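Single samples stood apart from their group in 25 of 172 groups of values over 45 genes (chance alone gives about 1 in 20), by Dixon's test of the gap to the nearest sample over the range. Of the 25, 13 are in 6 genes named after their values were seen, so the total is not set against chance. LP day 7 sample 3 was the highest for 6 genes: RNF213 (654 CPM, next 54.2 CPM), CMPK2 (436 CPM), DHX58 (330.3 CPM), UBA7 (274 CPM), IRF7 (175 CPM) and NLRC5 (71.9 CPM). SP sample 3 stood apart for RNF213 (153.8 CPM), CMPK2 (99.8 CPM), DHX58 (95.8 CPM) and IRF7 (41.0 CPM). LP day 1 sample 5 stood apart for RNF213 (80.1 CPM), DHX58 (63.4 CPM), HDC (68.8 CPM) and CHD1L (67.7 CPM). LP day 28 sample 5 was highest for UBA7 (39.7 CPM).

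HDC also stood apart in SP sample 2 (0.339 CPM, the others at 0), LP day 7 sample 6 (22.98 CPM) and LP day 28 sample 1 (12.7 CPM). PPP1R3A did so in SP sample 5 (1.41 CPM, the others at 0) and LP day 1 sample 2 (5.94 CPM). The low MBNL2 value of SP sample 2 (28.1 CPM, next 45.0 CPM) lies on the side of the LP day 7 difference, whose call was lost without it. The high EZH2 value of LP day 1 sample 6 (40.1 CPM, next 22.2 CPM) lies against the difference from LP day 28. MTERF2 stood apart in LP day 28 sample 2 (92.7 CPM, next 36.7 CPM), ACAP3 in LP day 7 sample 5 (240.3 CPM) and NR1D2 in LP day 1 sample 2 (64.0 CPM).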

How the results depend on the processing

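Of 29 values of named genes, 21 of them called, none changed sign under any alternative. EZH2, CHD1L and AMPD3 at LP day 28 against SP, and EZH2 and CHD1L against LP day 1, kept their calls in all of them. The LP day 7 count against SP was the least stable: 2 members became 12 with DESeq2 (357 of all genes, against 40), 1 with library-size normalization, 4 without a filter, 4 with all groups in a single fit, 6 with CRY1 and 4 with GH1 as a covariate, 1 with SP samples 2, 3 and 5 only, and 0 to 6 with a sample left out (0 without SP sample 4 or LP day 7 sample 1, 3 or 4; 1 without SP sample 1 or 2 or LP day 7 sample 2; 6 without LP day 7 sample 6). At LP day 28 the 6 members became 13 with DESeq2 (346 of all genes, against 100) and 4 to 7 with a sample left out. Between LP day 7 and day 1 the 0 became 1 with DESeq2 and 0 to 1 with a sample left out (CHD1L, without LP day 1 sample 5), and between LP day 28 and day 7 it became 2 with DESeq2. Between LP day 28 and day 1 the 3 became 2 to 4 with a sample left out. The parity count of 10 stayed between 7 and 11, without PPP1R3A in DESeq2, whose adjusted p was NA; MTERF2, NIM1K and RAB11FIP3 lost their calls with all groups in a single fit. By CRY1 state the 1 member without overlap became 0 with library-size normalization. TOX2 lost its call with all groups in a single fit and with SP samples 2, 3 and 5 only, MBNL2 with library-size normalization and with those SP samples, EEF1A2 with all groups in a single fit, PDK4 at LP day 28 with library-size normalization and GH1 (log2 fold changes 0.81 to 1.10 over all settings), and ZMYND15 between LP day 28 and day 1 with CRY1 (1.19 to 1.55). The cause of these changes was not tested. For most of these settings the count of all genes called is not given here, so the member counts have no background beside them.

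With replicate number as a block the counts were 8 at LP day 7 and 3 at LP day 28 against SP (AMPD3, CHD1L and EZH2). They were 1 (PDK4) between LP day 7 and day 1 and 5 between LP day 28 and day 1, with AMPD3 and ST18 added. The count of all genes called in these fits is not given here, so the member counts have no background beside them. Same-numbered samples deviated together with a correlation over 0.1 in 0 of 5, 3 of 5 and 0 of 5 pairs for LP day 1, 7 and 28 with SP, and in 3 of 6, 2 of 6 and 3 of 6 pairs among LP groups. The highest was 0.547, between LP day 7 and day 1. The number was not used to pair samples across groups in the main fits. Same-numbered LP day 7 and day 28 samples did share CRY1 state, so these values do not settle whether the number pairs samples. At the depth of LP day 1 sample 4 genes of a few CPM rest on few counts.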
